A study of Mus musculus with 6 samples.

Results

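Oxidative phosphorylation subunit genes were compared on Affymetrix arrays between Flk1-positive cells, Flk1 knockout (Flk1 KO) embryos and wild-type (WT) embryos. Members were taken by gene symbol: symbols beginning with Nduf followed by a, b, c, s or v and a digit, the 4 succinate dehydrogenase genes Sdha to Sdhd, and symbols beginning with Uqcr, with Cox4 to Cox8 or with Atp5. The rule found 164 probe sets of 81 genes, out of 45101 probe sets and 18193 genes on the array. Complex I held 35 of the genes, complex II 4, complex III 8, complex IV 17 and complex V 17. Each gene was represented by its brightest probe set over all 6 arrays. Probe sets annotated with several symbols were not members.

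The complexes named here sit in the inner mitochondrial membrane. Complex I (NADH dehydrogenase), complex III (cytochrome bc1) and complex IV (cytochrome c oxidase) pass electrons on to oxygen and pump protons out of the matrix, complex II feeds in electrons from succinate, and complex V (ATP synthase) lets the protons back to make ATP. A few subunits are encoded in mitochondrial DNA, and those considered here are encoded in the nucleus. Early embryos and endothelial cells are both known for drawing heavily on glycolysis. Some complex IV subunits exist as paired isoforms, of which one is kept mainly in heart and skeletal muscle.

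All samples came from ICR mice at 8.5 dpc with 3 to 4 somites, before blood circulates, and each of the 3 groups had 2 arrays of total RNA. The Flk1-positive cells are cells carrying Flk1, the VEGF receptor encoded by Kdr, and the study's design text names Flk1+/GFP embryos beside WT and Flk1 KO embryos. The KO and WT samples are whole embryos proper, so they average all cell types of the embryo. The selection of the Flk1-positive cells and the KO allele are not given in the sources used here. Nor do the labels state that replicate arrays are separate animals or cultures, so p-values measure only the spread between these arrays, which may be technical.

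The arrays followed their labels in the targeted gene. The signal of Kdr was 3309.1 and 3328.3 on the arrays of Flk1-positive cells, 29.51 and 63.76 on those of Flk1 KO embryos and 543.9 and 545.5 on those of WT embryos (at least 9.49-fold lower in KO than in WT, limma adjusted p = 0.0516). Neither labels nor files tell whether this probe set covers sequence that the knockout removes. Summed signals of 8 endothelial markers were 34259.5 and 34590.7 in Flk1-positive cells, 546.8 and 682.7 in KO embryos and 2693.8 and 2604.8 in WT embryos. Primitive erythroid markers were also high in the Flk1-positive cells, with sums over 6 genes of 42650.6 and 44446.5, against 284.1 and 150.4 in KO and 1021.9 and 514.2 in WT embryos. Between 54.3% and 57.9% of the probe sets of an array lay above background, which was set at a signal of 57.4 from probe sets of olfactory and vomeronasal receptors. The number of arrays limits the precision.

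Promoter sequence is shown for 4 of the member genes followed below: 3 that were higher in Flk1-positive cells and Cox7a1, the 1 that was lower. Each line gives 120 bases directly before the start of the gene in RefSeq (GRCm38.p6), 5′ to 3′ on the gene's strand, in lower case. Capitals mark matches to the GC-rich NRF1 motif of 10 letters in Ndufa8 and Ndufs5 and to the ETS motif CCGGAAG in Atp5e, read on either strand. The Cox7a1 window has no capitals, as none of the 4 motifs searched was found there. Nor was any found in the 120 bases before Ndufs4 and Ndufb5, which were also higher and are not printed.
Ndufa8, chr2:36049339-36049458, minus strand: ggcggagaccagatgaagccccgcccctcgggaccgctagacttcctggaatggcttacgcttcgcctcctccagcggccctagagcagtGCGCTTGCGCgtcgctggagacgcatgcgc
Ndufs5, chr4:123718187-123718306, minus strand: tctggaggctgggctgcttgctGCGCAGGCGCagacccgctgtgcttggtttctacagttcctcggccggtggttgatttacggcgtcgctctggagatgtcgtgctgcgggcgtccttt
Atp5e, chr2:174464102-174464221, minus strand: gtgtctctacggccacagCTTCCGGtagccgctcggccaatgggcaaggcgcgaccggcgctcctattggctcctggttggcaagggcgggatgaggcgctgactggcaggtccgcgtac
Cox7a1, chr7:30184051-30184170, plus strand: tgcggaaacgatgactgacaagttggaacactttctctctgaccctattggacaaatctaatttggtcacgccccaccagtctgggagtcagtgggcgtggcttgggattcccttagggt

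The subunit genes were strongly detected in all groups. Of the 81 genes, 76 lay above background on all 6 arrays and 70 had a mean signal of 1000 or more, with 16 of them at 10000 or more. Over the 79 genes tested, the median level, as log2(signal + 21.61), was 12.43 and 12.41 on the arrays of Flk1-positive cells, 12.20 and 12.20 on those of Flk1 KO embryos and 12.30 and 12.24 on those of WT embryos. Both Flk1-positive arrays thus had a higher median than every embryo array. The 2 genes not tested were Cox7b2 and Cox8b, tissue-restricted complex IV isoforms that stayed below background on every array.

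The brightest member of each complex had similar signals in all groups. Uqcrb, a small subunit of complex III, had 27743.6 and 29424.5 in Flk1-positive cells, 24360.6 and 23356.5 in KO embryos and 24326.8 and 23819.7 in WT embryos. Cox7a2, the broadly expressed form of a complex IV subunit, had 20806.7 and 21031.8 in Flk1-positive cells, 20283.3 and 16235.2 in KO embryos and 21376.3 and 20521.1 in WT embryos. Atp5b, the catalytic beta subunit of ATP synthase, had 19942.4 and 20983.9 in Flk1-positive cells, 19163.2 and 18572.8 in KO embryos and 19573.5 and 18282.7 in WT embryos. The Flk1-positive arrays were the highest for Uqcrb and Atp5b and lay within the range of the WT arrays for Cox7a2. Ndufc2, an accessory subunit of complex I, had 10492.3 and 10091.5 in Flk1-positive cells, 9125.0 and 8781.3 in KO embryos and 9807.3 and 9346.5 in WT embryos. Sdhb, the iron-sulfur subunit of complex II, had 5671.3 and 5790.0 in Flk1-positive cells, 5783.8 and 5595.6 in KO embryos and 5357.5 and 5323.9 in WT embryos. None of these 5 genes passed the test in any comparison. Their signals were below the brightest values of the arrays, which were 40308.5 to 46481.6.

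In Flk1-positive cells against WT embryos, 6 of the 79 genes tested were higher and 1 was lower (limma, Benjamini-Hochberg adjusted p under 0.05 over all probe sets tested), which is 7.59% and 1.27% of them. Over all 15204 genes tested, 12.1% were higher and 17.4% lower. At an unadjusted limma p under 0.05, 20.3% of members were higher and 5.06% lower, against 17.4% and 25.4% of all genes. The median difference of the members was 0.11 on the log2(signal + 21.61) scale, with a range of -1.04 to 0.98, against a median of -0.08 over all genes. That scale understates the change of dim genes. Most members were slightly above 0: 56 of 79, against 6631 of the 15204 genes tested. Both Flk1-positive arrays lay above both WT arrays for 46 members and below both for 17, where 30.4% and 41.8% of all genes had arrays that did not overlap. The plot of differences by complex shows these values.

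**Figure D1:**
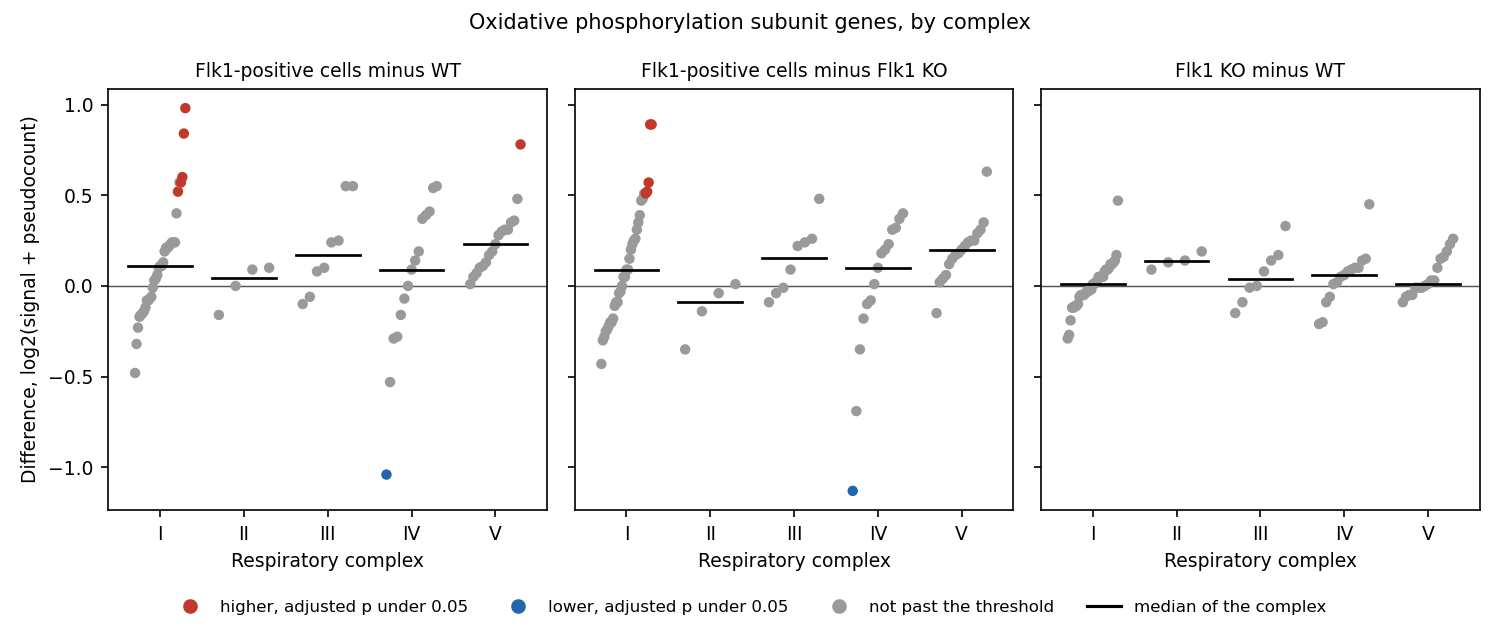
Difference of each tested subunit gene on the log2(signal + 21.61) scale, by complex, for Flk1-positive cells minus WT (left), Flk1-positive cells minus Flk1 KO (middle) and Flk1 KO minus WT (right). Each point is 1 gene, coloured where its limma adjusted p is under 0.05, and bars are medians of a complex. Most genes lie within 0.5 of 0, with Ndufa8 (0.98) and Cox7a1 (-1.04) farthest from it in the left panel, and no gene is coloured in the right panel.

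Complex I, the largest complex, held 5 of the 6 higher genes, which is 14.3% of its 35 and near the 12.1% of all genes. Ndufa8, an accessory subunit with paired cysteines that is imported into the intermembrane space, had 6118.9 and 5952.5 in Flk1-positive cells, 3405.2 and 3090.5 in KO embryos and 3170.4 and 2934.4 in WT embryos. Its Flk1-positive arrays stood well apart from the 4 embryo arrays, which overlapped between KO and WT. Ndufa8 was 0.98 ± 0.13 higher than in WT embryos (log2 difference ± SE, n = 2 arrays per group, 1.97-fold, limma adjusted p = 0.0056) and 0.89 ± 0.13 higher than in KO embryos (limma adjusted p = 0.00693). The call against WT held under all 18 alternatives, with adjusted p up to 0.0451.

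Ndufs5, another small cysteine-rich subunit, had 3378.5 and 3040.6 in Flk1-positive cells, 1700.3 and 1739.9 in KO embryos and 1916.4 and 1662.3 in WT embryos. No Flk1-positive array overlapped an embryo array. The difference from WT was 0.84 ± 0.14 (1.79-fold, limma adjusted p = 0.0119) and that from KO 0.89 ± 0.14 (limma adjusted p = 0.00889). Leaving out the first Flk1-positive array ended both calls of Ndufs5 (adjusted p = 0.0678 and 0.0536), and leaving out the second WT array ended that against WT (adjusted p = 0.0747).

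Ndufs4, an assembly-critical subunit of the NADH-binding end whose loss causes a severe mitochondrial disease in mice, had 2322.6 and 2268.6 in Flk1-positive cells, 1619.1 and 1456.6 in KO embryos and 1612.3 and 1406.2 in WT embryos. Ndufb5, a membrane-arm subunit, had 6226.7 and 6608.6 in Flk1-positive cells, 4461.8 and 4524.4 in KO embryos and 4604.8 and 4061.7 in WT embryos. For both genes the Flk1-positive arrays were above all embryo arrays. Ndufs4 was 0.60 ± 0.14 higher than in WT (limma adjusted p = 0.0321) and Ndufb5 0.57 ± 0.13 (limma adjusted p = 0.0328). Each lost its call when any Flk1-positive or WT array was left out, with adjusted p up to 0.158 for Ndufs4 and 0.162 for Ndufb5. The Ndufs4 call against WT was also lost with the gene taken as the median over its probe sets (limma adjusted p = 0.648). That of Ndufb5 was also lost with the replicate number as a term in the fit (limma adjusted p = 0.0613). Other probe sets of these genes varied. Of the 3 for Ndufs4, a pair differed from WT by -0.07 and 0.30 without passing (limma adjusted p = 0.813 and 0.412), and the third, not above background, passed at 0.76 (limma adjusted p = 0.0217). The other of Ndufb5 differed by 0.34 (limma adjusted p = 0.163).

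The remaining complex I call rests on a dim probe set. Ndufb4 had 34.56 and 31.88 in Flk1-positive cells, 29.91 and 32.57 in KO embryos and 17.79 and 15.56 in WT embryos, none of them above background, so no fold is given (limma adjusted p = 0.0355). Brighter probe sets for Ndufb4 carry several symbols and were not members.

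The catalytic core of complex I, which strips electrons from NADH and passes them along iron-sulfur clusters to ubiquinone, gave differences of both signs and no call. These genes were grouped by role after their values were seen. Ndufv1, which binds NADH, had 2830.0 and 3148.3 in Flk1-positive cells, 3841.0 and 3511.3 in KO embryos and 3228.4 and 3498.2 in WT embryos. Ndufs1, which carries several iron-sulfur clusters, had 2567.3 and 2718.6 in Flk1-positive cells, 2976.7 and 3193.3 in KO embryos and 2781.7 and 3066.1 in WT embryos. For both genes the Flk1-positive arrays were below all embryo arrays, with differences from WT of -0.17 ± 0.14 for Ndufv1 and -0.14 ± 0.13 for Ndufs1 (limma adjusted p = 0.423 and 0.481). Ndufv2 differed from WT by 0.04 ± 0.12, Ndufs3 by -0.01 ± 0.14 and Ndufs7 by 0.11 ± 0.14. Ndufs8, an iron-sulfur subunit of this core, had 5481.5 and 6160.7 in Flk1-positive cells, 3756.0 and 4654.5 in KO embryos and 4033.6 and 3776.9 in WT embryos. Its Flk1-positive arrays were above all others, and it missed the threshold at 0.57 ± 0.16 (limma adjusted p = 0.0557). Outside the core, Ndufa13, an accessory subunit also known as a cell death gene, had 4928.8 and 4917.1 in Flk1-positive cells, 5875.5 and 6062.4 in KO embryos and 6024.9 and 6299.4 in WT embryos. That is a difference from WT of -0.32 ± 0.12 without overlap of the arrays (limma adjusted p = 0.116).

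**Figure D2:**
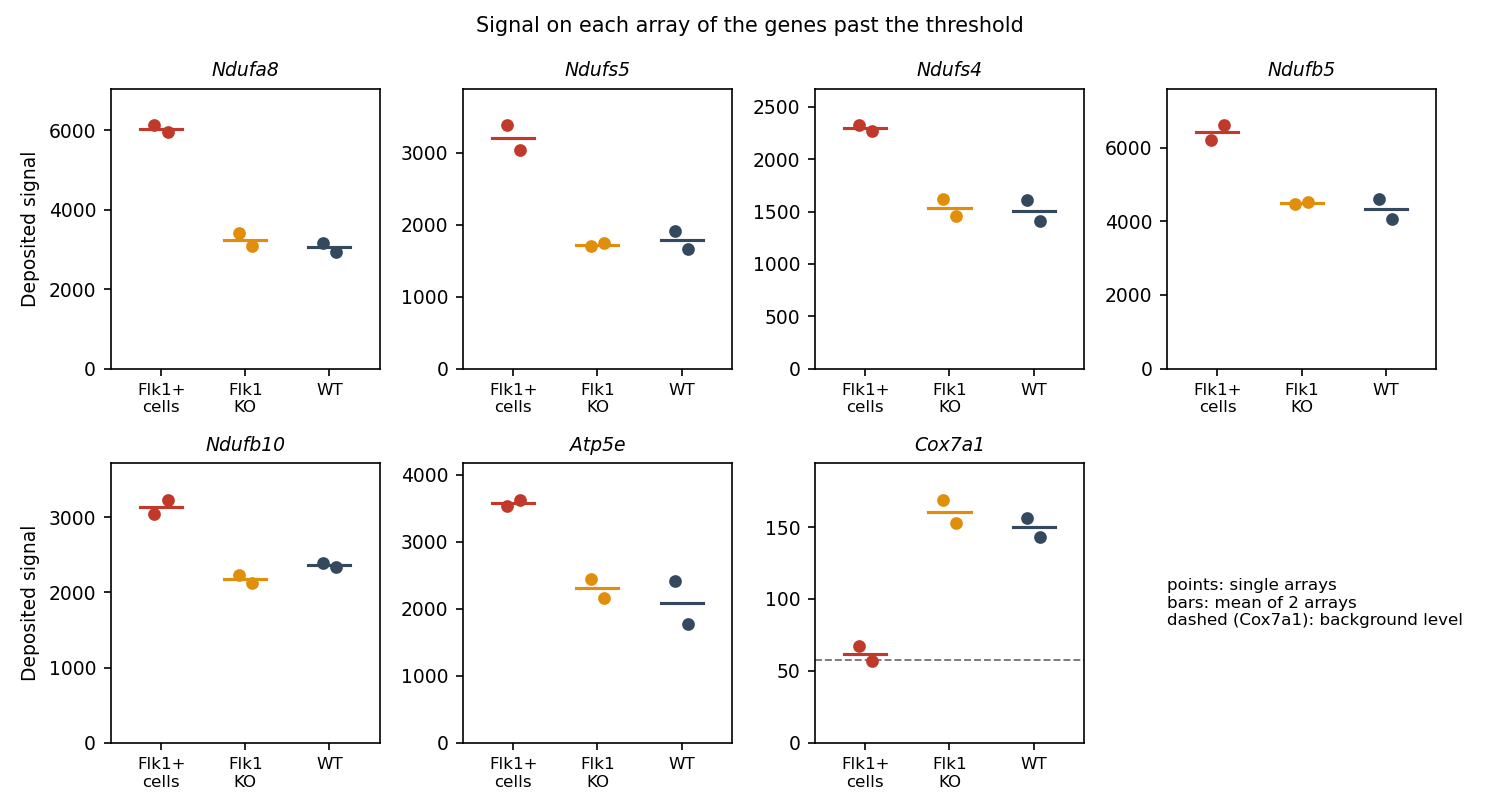
Deposited signal (linear, arbitrary units) of Ndufa8, Ndufs5, Ndufs4, Ndufb5, Ndufb10, Atp5e and Cox7a1 on each array, with bars for the mean of 2 arrays in Flk1-positive cells, Flk1 KO embryos and WT embryos. Ndufb4, below background on every array, is left out. In the first 6 genes the Flk1-positive arrays are highest, and in Cox7a1 they are lowest and lie at the dashed background level of 57.4.

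Complex V had the most uniform sign of the 5 complexes in this comparison. All 17 ATP synthase genes were above 0 against WT, with differences of 0.01 to 0.78 and a median of 0.23, and both Flk1-positive arrays lay above both WT arrays for 13 of them (76.5%, against 30.4% of all genes). Atp5e, the small epsilon subunit of the rotor, had 3530.5 and 3627.1 in Flk1-positive cells, 2443.4 and 2161.8 in KO embryos and 2409.5 and 1776.6 in WT embryos. Its probe set is of a kind marked as able to match more than 1 transcript, by an s or x in its name, as are those of 14 members in all. Atp5e was the complex V gene that passed, 0.78 ± 0.19 higher than in WT (1.72-fold, limma adjusted p = 0.0331) and 0.63 ± 0.19 above KO (limma adjusted p = 0.0564). Its 2 WT arrays were far apart, and the call against WT was lost without 5 of the 6 arrays, all but the first WT array, with adjusted p up to 0.132 (without the second WT array). Of the 3 genes for the identical membrane-ring subunit c, Atp5g1 differed from WT by 0.36 ± 0.16, Atp5g2 by 0.01 ± 0.15 and Atp5g3 by 0.28 ± 0.15, and none passed. Atp5a1, the alpha subunit, differed by 0.35 ± 0.13 (limma adjusted p = 0.115).

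The other complexes had smaller or mixed differences from WT. The complex III median was 0.17 with no gene past the threshold. Nearest to it was Uqcr10, a small accessory subunit, with 3338.3 and 3272.4 in Flk1-positive cells, 3035.1 and 2648.7 in KO embryos and 2442.3 and 2070.5 in WT embryos. Its 3 groups did not overlap, and it differed from WT by 0.55 ± 0.15 (limma adjusted p = 0.051). Uqcrq, another small subunit, was at 0.55 ± 0.16 (limma adjusted p = 0.0557), while the core protein gene Uqcrc2 differed by -0.06 ± 0.13. In complex II, whose subunits also form a step of the citric acid cycle, Sdha differed by 0.09 ± 0.13, Sdhb by 0.10 ± 0.12, Sdhc by -0.16 ± 0.14 and Sdhd by 0.00 ± 0.16. Sdhc, a membrane anchor, had 3523.0 and 3612.9 in Flk1-positive cells, 4938.9 and 4183.3 in KO embryos and 4025.0 and 3929.6 in WT embryos, lowest in Flk1-positive cells and highest in KO embryos. Every 95% interval against WT of these 4 genes lay within 1.5-fold, and the complex II median of 0.05 turned to -0.06 when a gene was taken as the median over its probe sets. In complex IV the median was 0.09.

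Cox7a1, the heart and skeletal muscle form of a complex IV subunit, was the member that fell. It had 67.22 and 56.77 in Flk1-positive cells, 169.0 and 152.6 in KO embryos and 156.5 and 143.3 in WT embryos. The Flk1-positive arrays were lowest, and 1 of the 2 was below the background level. Cox7a1 fell by 1.04 ± 0.14 against WT (limma adjusted p = 0.00586) and by 1.13 ± 0.14 against KO embryos (limma adjusted p = 0.00409), and both calls held under all 18 alternatives. Markers of cardiomyocytes were also lower in Flk1-positive cells. Their summed signal over 8 genes was 2059.5 and 1740.9 there, 38471.5 and 26080.2 in KO embryos and 19065.4 and 19787.9 in WT embryos. Of the 8, 2 were not above background in Flk1-positive cells. These sums were higher in KO than in WT embryos, but none of the 8 genes passed there (limma adjusted p 0.386 to 0.858). In that comparison Cox7a1 differed by 0.09 ± 0.14 (limma adjusted p = 0.914). Other marker sums were lower in Flk1-positive cells too. Those of somite and presomitic mesoderm were 547.3 and 500.1, against 6287.5 to 6767.2 on the embryo arrays. Those of gut endoderm and epithelium were 6397.9 and 6816.2, against 13313.5 to 15582.5, although Sox17 of that list was higher. Neuroectoderm sums, given below, were lower as well. The part of any of these cell types in the Cox7a1 difference was not tested. In whole-embryo RNA, fewer cells of a type and less RNA per cell cannot be told apart.

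The broadly expressed partner isoforms gave values near or above those of WT. Cox7a2 differed from WT by -0.00 ± 0.16 and Cox7a2l, a related gene whose protein joins complexes III and IV in supercomplexes, by 0.19 ± 0.12. Cox4i1, the common form of subunit 4, had 13941.4 and 14580.6 in Flk1-positive cells, 11824.7 and 11184.5 in KO embryos and 10970.4 and 10554.8 in WT embryos, a difference from WT of 0.41 ± 0.12 that missed the threshold (limma adjusted p = 0.0686). Its arrays did not overlap with those of either embryo group.

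The restricted partner Cox4i2, known from lung and from low oxygen, had 120.2 and 106.9 in Flk1-positive cells, 199.2 and 111.7 in KO embryos and 166.2 and 123.5 in WT embryos, so that KO overlapped both other groups. Cox6a1, the common form of subunit 6a, differed from WT by 0.39 ± 0.13 (limma adjusted p = 0.0834). The muscle form Cox6a2 had 67.1 and 63.7 in Flk1-positive cells, 146.4 and 28.54 in KO embryos and 69.92 and 100.2 in WT embryos, with the KO arrays on both sides of the others. Its Flk1-positive arrays lay below both WT arrays but, unlike those of Cox7a1, not below both KO arrays. For subunit 6b, Cox6b1 differed by 0.37 ± 0.13 and the testis form Cox6b2 by -0.53 ± 0.20 (limma adjusted p = 0.108 and 0.118).

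For subunit 8, the common form Cox8a differed from WT by 0.55 ± 0.22 (limma adjusted p = 0.127) and the testis form Cox8c by 0.54 ± 0.33 (limma adjusted p = 0.289). The muscle form Cox8b lay between 2.571 and 25.5 on the 6 arrays, below background. Ndufa4, grouped here with complex I by its symbol although its protein is now placed in complex IV, differed by 0.11 ± 0.14, and its paralogue Ndufa4l2, known as a target of the hypoxia response, by -0.48 ± 0.18 (limma adjusted p = 0.108). Ndufa4l2 had 299.9 and 236.6 in Flk1-positive cells, 403.6 and 331.5 in KO embryos and 400.7 and 363.0 in WT embryos. Its Flk1-positive arrays were the lowest without passing the test.

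Precision allows bounds on most members. The 95% interval of the difference from WT lay within 2-fold for 71 of the 79 members and within 1.5-fold for 44, against 55% and 20.8% of all genes tested. Members are bright, and bright genes are measured more closely, so the same was counted among genes with a mean signal of 1000 or more: 66 of 70 members (94.3%) and 44 of 70 (62.9%) met these limits, against 76.7% and 38.8% of the 4472 genes of that brightness. In that range 7.14% of members were called higher by limma and 0% lower, against 13.1% and 14.7% of genes. At an unadjusted limma p under 0.05, 21.4% of these members were higher and 1.43% lower, against 18.9% and 23.9% of genes. The median standard error was 0.136 for these members and 0.139 for genes of that brightness.

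**Figure D3:**
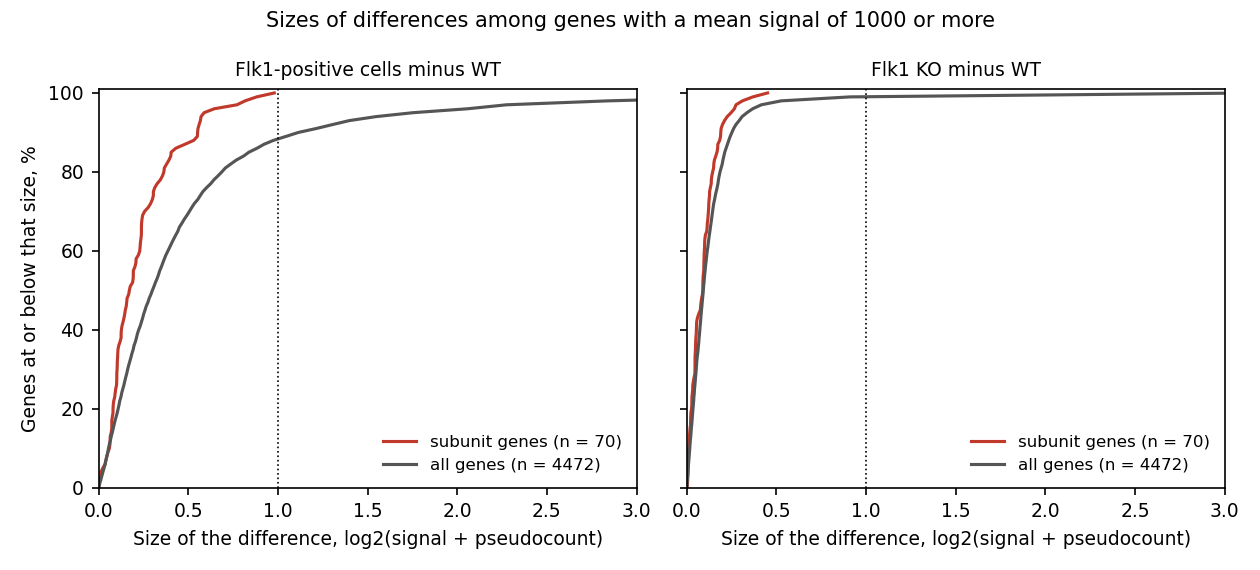
Share of genes (%) whose difference is at or below a given size (log2(signal + 21.61) units, horizontal axis), for the 70 subunit genes (red) and all 4472 genes (grey) with a mean signal of 1000 or more. The left panel is Flk1-positive cells minus WT and the right panel Flk1 KO minus WT, and the dotted line marks a difference of 1. All 70 subunit genes lie left of that line in both panels, while the grey curve in the left panel extends beyond it.

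No subunit gene was called between the embryo groups. In Flk1 KO against WT embryos, 0 of 79 members passed the limma test in either direction, where 0% of all genes tested were higher and 0.118% lower. With no adjustment, 1 member (Ndufb4, below background) was higher at p under 0.05 and 0 were lower, against 2.64% and 3.66% of all genes, and none passed under any of the 18 alternatives. The median difference was 0.03, with a range of -0.29 to 0.47, and the median over all genes was 0.00. Arrays did not overlap for 15 members that were higher and 9 that were lower, against 19.1% and 18.1% of all genes. The 95% interval lay within 2-fold for 78 of the 79 members and within 1.5-fold for 62, against 80.5% and 47.6% of all genes. Among members with a mean signal of 1000 or more, these were 70 of 70 and 60 of 70, against 97.7% and 80.9% of genes of that brightness.

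Complex medians in KO against WT embryos were 0.01 in complex I, 0.13 in complex II, 0.04 in complex III, 0.06 in complex IV and 0.01 in complex V. The highest differences above background were Cox8a at 0.45 ± 0.22 and Uqcr10 at 0.33 ± 0.15 (limma adjusted p = 0.68 and 0.663). Cox8a had 3964.2 and 2671.4 in KO embryos against 2546.2 and 2218.0 in WT embryos, with 1 KO array far above the other. After them came Atp5md at 0.26 ± 0.22, Atp5l at 0.23 ± 0.16 and Sdhc at 0.19 ± 0.14, the first 2 being membrane subunits of ATP synthase. At the low end were the complex I accessory genes Ndufb1 at -0.29 ± 0.18, Ndufc1 at -0.27 ± 0.14 and Ndufb6 at -0.19 ± 0.16, with Cox7a2 at -0.21 ± 0.16, Cox6a2 at -0.20 ± 0.56 and Uqcrc2 at -0.15 ± 0.13. Ndufc1 had 4867.4 and 5303.0 in KO embryos against 6511.0 and 5811.5 in WT embryos, arrays that did not overlap (limma adjusted p = 0.683).

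Set against Flk1 KO embryos, the Flk1-positive cells had 5 higher members and 1 lower among 79, where 12.8% of all genes were higher and 19% lower. The arrays did not overlap for 39 members that were higher and 13 that were lower, against 29.2% and 39.9% of all genes. Intervals lay within 2-fold for 71 members and within 1.5-fold for 41, against 53.8% and 20.1%. This comparison uses the same Flk1-positive arrays as that against WT, so the 2 are not independent. Ndufa8, Ndufs5, Ndufs4 and Ndufb5 were called in both, as was Cox7a1. By its brightest probe set, the gene called against KO alone was Ndufb10, a membrane-arm subunit with 3035.9 and 3230.1 in Flk1-positive cells, 2224.1 and 2124.7 in KO embryos and 2394.7 and 2333.0 in WT embryos. Its Flk1-positive arrays were above all others. Ndufb10 was 0.52 ± 0.12 higher than in KO (limma adjusted p = 0.0309) and 0.40 ± 0.12 above WT (limma adjusted p = 0.0698). KO and WT embryos differed by -0.12 ± 0.12 (limma adjusted p = 0.863). The call of Ndufb10 against KO was lost without any 1 of the 6 arrays (adjusted p 0.0605 to 0.141), as were those of Ndufs4 (0.57 ± 0.14, limma adjusted p = 0.0341, up to 0.135) and Ndufb5 (0.51 ± 0.13, limma adjusted p = 0.0408, up to 0.163). Complex medians against KO were 0.09 in complex I, -0.09 in complex II, 0.15 in complex III, 0.10 in complex IV and 0.20 in complex V.

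The number of calls depended on single arrays. The 6 members higher than in WT became 1 without the first Flk1-positive array or without the second WT array, 2 without the second Flk1-positive array and 3 without the first WT array. Against KO, Ndufb10, Ndufb5 and Ndufs4 lost their calls without any 1 of the 6 arrays, and Ndufs5 without the first Flk1-positive array. Ndufb1 was newly called without the second KO array, and Atp5e without either WT array. Of the 3 RNA controls, 2 separated the Flk1-positive arrays from the rest: the log2 gap between the 3′ and 5′ probe sets of the transferrin receptor was 1.26 and 1.35 in Flk1-positive cells and 0.94 to 1.05 on the 4 embryo arrays, and that of Actb was 0.26 and 0.29 in Flk1-positive cells and 0.47 to 0.58 on the embryo arrays. The gap of Gapdh overlapped, at -0.32 and -0.36 in Flk1-positive cells and -0.37 to -0.32 on the embryo arrays. Their part in the small differences of the subunit genes was not tested.

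Genes around the subunits were called in both directions. In Flk1-positive cells against WT, 3 of 14 complex I assembly factors were lower and 0 higher by limma (21.4% lower, against 17.4% of all genes, median -0.08, with 0 higher also without adjustment). Nubpl, which delivers iron-sulfur clusters to complex I, had 736.4 and 690.8 in Flk1-positive cells, 1269.6 and 1130.7 in KO embryos and 1110.5 and 1123.7 in WT embryos, and fell by 0.63 ± 0.13 against WT (limma adjusted p = 0.0228). Ndufaf1 fell by 0.61 ± 0.12 (limma adjusted p = 0.0198), and Tmem186 by 0.49 ± 0.13 (limma adjusted p = 0.0412). Of 13 assembly factors of complexes II, III and V, 1 was higher (7.69%, against 12.1% of all genes) and 0 lower, also without adjustment: Sdhaf1, which protects the iron-sulfur subunit of complex II, at 0.86 ± 0.14 (limma adjusted p = 0.00965). None of 18 complex IV assembly factors passed (median 0.02, with unadjusted limma p under 0.05 for 1 higher and 3 lower genes). Nor did any of 7 electron carriers and subunits outside the symbol rule (median 0.23, with 2 higher and 0 lower without adjustment). Without adjustment, 17.4% of all genes were higher and 25.4% lower. Nubpl and Ndufaf1 lost their calls without any Flk1-positive or WT array (adjusted p up to 0.112), as did Tmem186 (up to 0.181, and 0.687 with the median over its probe sets), and Sdhaf1 without the first Flk1-positive or either WT array (up to 0.0658).

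Of 16 regulators of mitochondrial biogenesis, 1 was higher and 3 were lower (6.25% and 18.8%, against 12.1% and 17.4% of all genes, median -0.17). Polg, the catalytic subunit of the mitochondrial DNA polymerase, had 3877.6 and 3628.5 in Flk1-positive cells, 1665.2 and 1763.4 in KO embryos and 1949.9 and 1923.0 in WT embryos. Every Flk1-positive array was above every embryo array, and Polg was 0.95 ± 0.13 higher than in WT (limma adjusted p = 0.00538), a call that held under all 18 alternatives. Its accessory subunit Polg2 fell by 0.81 ± 0.16 (limma adjusted p = 0.0178). Tfam, which packages mitochondrial DNA and starts its transcription, had 2331.1 and 2608.7 in Flk1-positive cells, 3636.6 and 3843.7 in KO embryos and 3702.3 and 3965.3 in WT embryos, and fell by 0.63 ± 0.13 (limma adjusted p = 0.0242). Tfam was named after its values were seen. Polg2 and Tfam both lost their calls without any Flk1-positive or WT array (adjusted p up to 0.0915 and 0.125). The coactivator gene Ppargc1a was near background: 6.929 and 25.05 in Flk1-positive cells, 68.19 and 51.28 in KO embryos and 70.58 and 53.01 in WT embryos, at least 1.07-fold lower than in WT (limma adjusted p = 0.0321, up to 0.146 with arrays left out).

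Genes that supply the chain with fuel were called in both directions. Of 17 citric acid cycle and pyruvate dehydrogenase genes, 0 were higher by limma and 1 was lower (5.88%, against 17.4% of all genes). Without adjustment 1 was higher and 1 lower, where 17.4% and 25.4% of all genes were. The list median was 0.12. Pdha1, the pyruvate dehydrogenase alpha subunit, fell by 0.52 ± 0.13 (limma adjusted p = 0.0434). Among 6 kinases and phosphatases of that enzyme 1 was higher and 2 lower (16.7% and 33.3%), with the phosphatase gene Pdp1 at 0.80 ± 0.13 (limma adjusted p = 0.01), the kinase gene Pdk3 at -0.68 ± 0.14 (limma adjusted p = 0.0225) and Pdk2 at least 1.21-fold lower, from signals at background in Flk1-positive cells (limma adjusted p = 0.0243). Of 8 carriers and porins 1 was higher (12.5%, beside 12.1% of all genes), the ADP/ATP carrier gene Slc25a5, with 22022.2 and 22360.8 in Flk1-positive cells, 14388.1 and 13281.9 in KO embryos and 13451.7 and 13851.4 in WT embryos (0.70 ± 0.13, limma adjusted p = 0.014). Each of these calls was lost without at least 1 array, with adjusted p up to 0.189 for Pdha1, 0.0687 for Pdp1, 0.119 for Pdk3, 0.109 for Pdk2 and 0.0839 for Slc25a5.

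The widest differences among these lists were in glycolysis, where 2 of 15 genes were higher and 5 lower (13.3% and 33.3%, against 12.1% and 17.4% of all genes, median -0.28). Aldoc, the brain form of aldolase, had 128.2 and 100.3 in Flk1-positive cells, 766.9 and 678.0 in KO embryos and 645.8 and 726.4 in WT embryos, and fell by 2.39 ± 0.17 (limma adjusted p = 0.000777). Ldhb, the lactate dehydrogenase subunit of oxidative tissues, had 493.4 and 414.9 in Flk1-positive cells, 1616.9 and 2317.6 in KO embryos and 1923.5 and 2018.2 in WT embryos, and fell by 2.07 ± 0.21 (limma adjusted p = 0.00229). For both genes the Flk1-positive arrays were far below all embryo arrays, and both calls held under all 18 alternatives. Ldha, by contrast, differed by -0.04 ± 0.15. Neuroectoderm markers were also lower, with sums over 6 genes of 447.7 and 286.7 on the Flk1-positive arrays, 8842.9 and 9452.3 on the KO arrays and 10164.8 and 9946.3 on the WT arrays. The cardiomyocyte, somite and gut sums given above were lower as well. The part of any of these cell types in the falls of Aldoc and Ldhb was not tested. The hexokinase gene Hk1 was 1.43 ± 0.22 higher (limma adjusted p = 0.00843), lost only without the second WT array (adjusted p = 0.0547), and the phosphofructokinase gene Pfkp 0.57 ± 0.15 higher (limma adjusted p = 0.0464), lost without any Flk1-positive or WT array (adjusted p up to 0.18).

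Ribosomal protein genes, the other large sets for multi-subunit machines, had medians near that of the subunit genes. Of 76 mitochondrial ribosomal protein genes 7 were higher (9.21%, against 12.1% of all genes) and 0 lower by limma, with a median of 0.14. Without adjustment 15 were higher and 5 lower, where 17.4% and 25.4% of all genes were. Among the 7 called higher were Mrps6 at 0.91 ± 0.16 and Mrps26 at 0.80 ± 0.15 (limma adjusted p = 0.0144 and 0.0172). Of 47 cytosolic ribosomal protein genes 2 were higher and 1 lower (4.26% and 2.13%, median 0.14), with Rps27 at 0.96 ± 0.14, Rpl27a at 0.63 ± 0.14 and Rpl14 at -0.58 ± 0.13 (limma adjusted p = 0.00662, 0.0266 and 0.025). The median of 0.11 for the oxidative phosphorylation genes lay beside these, and several of the lists thus had a small positive median. Rps27 held under all 18 alternatives and the other 4 genes named did not: Mrps26, Rpl27a and Rpl14 were lost without any Flk1-positive or WT array (adjusted p up to 0.129) and Mrps6 without either Flk1-positive array or the second WT array (up to 0.0743).

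**Figure D4:**
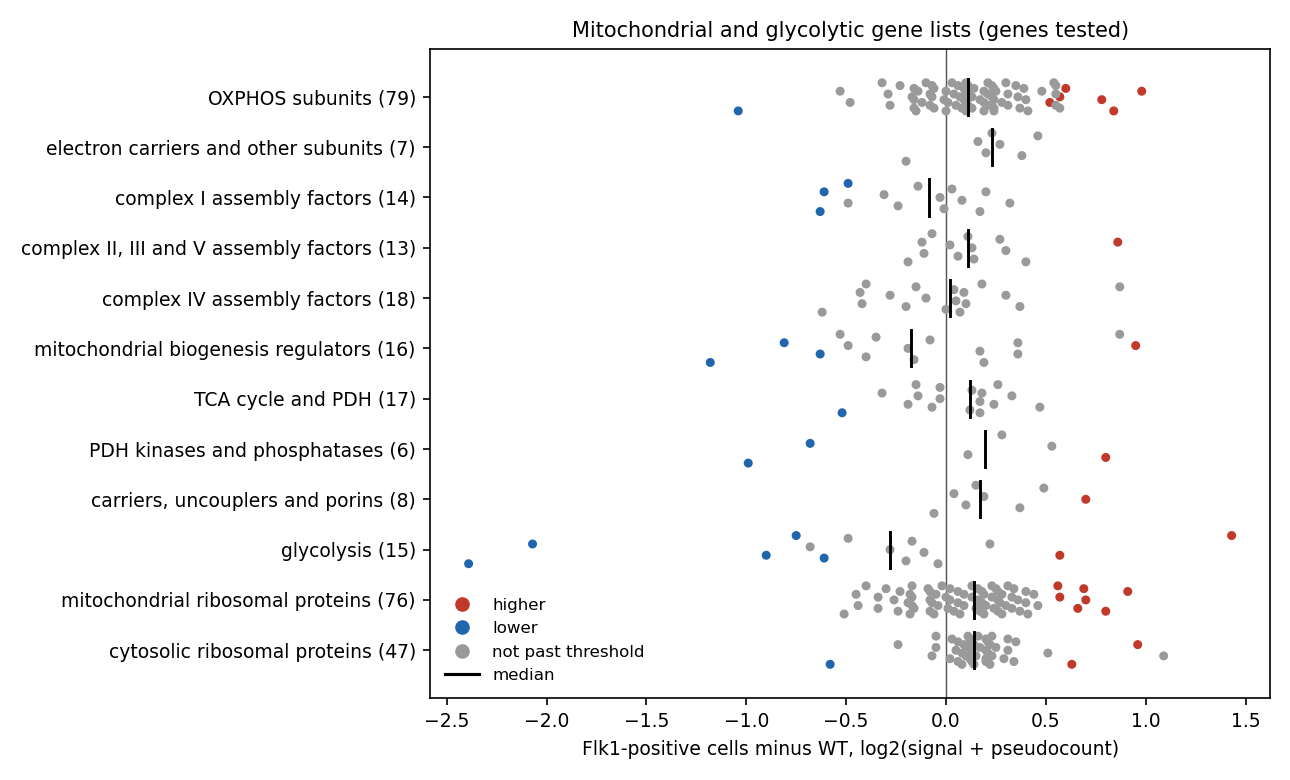
Difference between Flk1-positive cells and WT embryos, on the log2(signal + 21.61) scale, for each tested gene of the subunit set (OXPHOS) and of 11 other lists, with the number tested in brackets and a bar at the median. Coloured points have a limma adjusted p under 0.05, and points of genes below background, such as Ppargc1a and Pdk2, are fitted values and no folds. The subunit median (0.11) lies close to those of the ribosomal lists (0.14), and the glycolysis list holds the lowest points.

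In Flk1 KO against WT embryos, 0 of the 237 genes tested in these 11 lists passed by limma, with list medians between -0.13 and 0.09. At an unadjusted limma p under 0.05, 4 were lower and 0 higher, where 3.66% and 2.64% of all genes were. Against KO embryos, where 12.8% of all genes were higher and 19% lower, Flk1-positive cells had 3 lower of 14 complex I assembly factors (21.4%) and 1 higher and 3 lower of 16 biogenesis regulators (6.25% and 18.8%). Of 15 glycolysis genes 1 was higher and 7 were lower (6.67% and 46.7%), and of 76 mitochondrial ribosomal protein genes 9 were higher and 2 lower (11.8% and 2.63%). Of 29 list genes called against KO and followed through the alternatives, 25 lost the call without at least 1 array, and Aldoc, Ldhb, Pdp1 and Polg held under all 18.

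Promoter letters were counted over the 66 of 81 members with an entry in the RefSeq table, in windows from 250 bases before to 50 after the gene start, on both strands and each motif on its own, also where matches overlapped. NRF1 (nuclear respiratory factor), known as a regulator of respiratory genes, had its motif in 15 members (22.7%), among them Ndufa8 and Ndufs5 as printed above, against 5.19% of all 27025 genes and 15.2% of the tested genes with a mean signal of 1000 or more. The ETS motif CCGGAAG, bound by GABP among others, was in 17 (25.8%), including Atp5e, against 9.93% of all genes and 25% of bright tested genes. The YY1 motif AAGATGGC was in 9 (13.6%), among them Ndufs4, against 3.19% and 6.94%, and the ERR motif TNAAGGTCA in 3 (4.55%), against 1.43% and 0.678%. These are matches of letters in a window and say nothing of binding in these cells.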

How the data were processed

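The 6 arrays formed 3 groups. The deposited values are a linear signal per probe set, and the authors' table has a trimmed mean of 500 on every array (2% left out at each end) and a floor of 1, so it was scaled before deposit; neither labels nor headers name the program. RNA came from an RNeasy Micro kit and carried biotin, per the labels' protocols, and the design text names GeneSpring. The files name no genome build.

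Signals were taken as log2(signal + 21.61), the 25th percentile of all values, with the scale left as deposited because array medians lay within 0.147 (limit 0.2). Of the probe sets, 64 controls were dropped and the 34621 with a mean of at least 21.61 were tested. A gene is its brightest probe set with 1 symbol (34958 had 1, 932 several, 9211 none), and all 81 members matched RefSeq. Limma 3.58.1 in R 4.3.3 (lmFit, eBayes, two-sided) was fitted to all 6 arrays with group as the only term (3 residual and 2.44 prior degrees of freedom), adjusted over all probe sets tested. Intervals use the t distribution with 5.44 degrees of freedom. The background level is the 95th percentile of 80 receptor probe sets, and a group mean below it gives a bound ("at least"). The procedure was tested on simulated data. Figures used matplotlib 3.10.9 in Python 3.11.15.

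Members, gene lists and named genes (the brightest member of each complex, the largest calls, isoform sets and up to 2 genes a direction in each list) were chosen with earlier results of these data known. Numbers were not taken as pairs, because the labels do not say that a number marks a shared litter or day. As a check, same-numbered arrays did not deviate together (correlations of 0.0267, 0.00495 and 0.0226). Alternatives were other pseudocounts, filters, normalizations, priors, probe-set rules, samples in the fit, a replicate block and leaving out each array. No sequence outside the RefSeq promoter table was used.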

Additional observations from a re-analysis of the deposited data

How the results depend on the processing

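Counts of member genes past the threshold are given as higher and lower in turn. In Flk1-positive cells against WT (6 and 1), the higher count was 12 with the pseudocount at the median, 13 with the filter at the 50th percentile, 21 with an intensity trend and robust prior (2 lower) and 12 with 1 probe set per gene before the fit. Leaving out single arrays gave 1 to 7 higher, and the median of 0.11 was then 0.09 to 0.19 and 0.16 with median centring. Against Flk1 KO (5 and 1), it was 10 and 2 with the pseudocount at the median, 12 and 2 with the filter at the 50th percentile, 23 and 6 with the trend, 2 higher with median centring, and 3 higher with no filter or only the groups compared. The lower count was 3 with each gene as its probe-set median and 2 with 1 probe set per gene. Leaving out single arrays gave 1 to 3 higher, and the median of 0.12 was then 0.09 to 0.15, 0.15 with the filter at the 50th percentile and 0.06 with median centring. In Flk1 KO against WT all settings gave 0 and 0, and the median of 0.03 was -0.02 to 0.08 with arrays left out and 0.13 with median centring, which moved the median of all genes to 0.10 as well. With the replicate block the counts were 4 and 1 against WT, 3 and 1 against KO and 0 in KO against WT; same-numbered samples share only a number. The complex IV assembly factor Cox16, lower against KO, was at 0.07 (limma adjusted p = 0.731) with the median over its probe sets. A filter at the 25th percentile of the probe sets' own means, chosen after seeing the data, gave 7 higher against WT. The cause of these changes was not tested. Calls over all genes also moved with the setting. With median centring, 1922 genes were higher and 2320 lower against WT, where the deposited scale gave 1844 and 2643. Against KO they were 1726 and 3049, where the deposited scale gave 1950 and 2884. Shares of all genes under the other pseudocounts, filters and priors are not given, so the member counts there cannot be set against them. Of 3762 settings of named genes, 3348 kept their side of the threshold with the same sign or, where not called, a shift under 1 SE, 281 lost the call, 102 gained one, 30 changed sign by at least 1 SE with no call on either side and 1 reversed. With 2 arrays a group, differences well under 2-fold are at the limit of what was called, and signals near 57.4 give bounds only.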

Other observations

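Probe sets that the symbol rule left out, because they carry several symbols or a mitochondrial gene, gave further values for the same machinery. A probe set shared by Ndufs5 and its pseudogene had 3826.1 and 3790.1 in Flk1-positive cells, 2601.9 and 2487.7 in Flk1 KO embryos and 2825.3 and 2631.3 in WT embryos, and was higher than in WT by 0.48 ± 0.12 (limma adjusted p = 0.0439) and than in KO by 0.58 ± 0.12 (limma adjusted p = 0.023). The mitochondrially encoded complex I subunit ND5 had 9077.7 and 9364.4 in Flk1-positive cells, 9416.5 and 7466.7 in KO embryos and 8704.3 and 8244.9 in WT embryos, with a difference from WT of 0.12 ± 0.16 (limma adjusted p = 0.622). The 2 bright probe sets shared by Ndufb4 and its relatives differed from WT by 0.33 ± 0.12 and 0.44 ± 0.14 (limma adjusted p = 0.113 and 0.0756), against the dim Ndufb4 probe set that passed below background.

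Among 78 further tested probe sets of 47 member genes, 4 were higher and 1 was lower in Flk1-positive cells against WT (limma), with a median of 0.15, where 11.2% of all probe sets tested were higher and 13.8% lower. Those higher belonged to Ndufb8, Ndufc2, Ndufs4 and Ndufs8, and those of Ndufc2 and Ndufs4 were not above background. The probe sets of 1 gene could disagree. The brightest Ndufb8 probe set differed by -0.23 ± 0.13, while a dim one, with 154.8 and 171.0 in Flk1-positive cells, 81.04 and 95.53 in KO and 92.7 and 99.4 in WT embryos, was 0.65 ± 0.14 higher (limma adjusted p = 0.0253). For Atp5j2, whose brightest probe set differed by 0.05 ± 0.13, a dim one fell by 0.71 ± 0.17 (limma adjusted p = 0.0328), with 112.6 and 118.5 in Flk1-positive cells, 120.6 and 142.9 in KO and 229.0 and 179.0 in WT embryos. Which transcripts the dim probe sets read was not tested. Against KO embryos, 4 of the 78 were higher and 1 lower by limma, where 4654 and 5153 of all 34621 probe sets tested were. For Ndufa12, whose brightest probe set was not called, 2 others were higher than in KO by 0.56 ± 0.13 and 0.63 ± 0.14 (limma adjusted p = 0.0276 and 0.0258). A probe set of Ndufa7 was lower by 0.63 ± 0.16 (limma adjusted p = 0.0348). The rest belonged to Ndufb8 and Ndufs4.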
